A study of Mus musculus with 11 samples.

Results

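Narrow coding promoters were regions of acetylated histone H3 lysine 27 (H3K27ac) that covered the transcription start site (TSS) of a protein-coding transcript, carried no overlap with an RBPJ site and spanned less than 3000 bp. They were taken from the authors' deposited table by its RBPJ overlap mark (0), its distance to the TSS (0), its transcript accession (RefSeq mRNA) and the width from first to last base. The selection held 4965 of 56342 regions (8.81%), assigned to 4917 gene symbols. No measured change entered the selection, but width and overlap depend on how regions were called.

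The cells were Beko, a cell line of mouse pre-T cells, treated for 24 h with DMSO, with apicidin (0.01 mg/ml as labelled) or with the gamma-secretase inhibitor DAPT, here called GSI (10 mg/ml as labelled). Each of these 3 treatments had 2 H3K27ac chromatin immunoprecipitation libraries and 1 input, and RBPJ had 2 libraries from DMSO cells, 11 libraries in all. The labels call apicidin an HDAC3 inhibitor, and no group carries a transgene or deletion. They do not say whether the 2 libraries of a group are separate cultures of this single line, so each p-value covers only the spread between those libraries, which may be technical. The deposited table gives 1 mean signal and 1 fold change per treatment, not values per library, so the values of single libraries and the overlap of groups are not shown.

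H3K27ac is placed on nucleosomes beside active start sites and at active enhancers by the acetyltransferases p300 and CBP and is removed by histone deacetylases, among them HDAC3 in its NCoR complexes. Many coding promoters, above all those of housekeeping genes, lie in CpG islands and carry a compact acetylated block around the start site, while genes of cell identity often carry acetylation that spreads far into the gene body. Gamma-secretase cleaves Notch receptors to free the intracellular domain that acts through RBPJ on DNA.

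The median narrow promoter was 1532 bp wide (quartiles 1019 and 2096, range 179 to 2996). Its base mean, the authors' normalised read count averaged over libraries, was 340 (quartiles 194 and 540, range 10.9 to 2475), or 219 per kb. Broad coding promoters without RBPJ, the 1609 regions of 3000 bp or more, had a median width of 4357 bp, a base mean of 1254 and 274 per kb. Narrow promoters therefore held less signal in all and a somewhat lower signal per kb. Markers of pre-T cells (Ptcra, Rag1, Cd3e, Lck, Thy1, Tcf7, Bcl11b and others) had a region over the start site for 11 of 12 genes, with base means from 677 to 12722. None of the 6 B-lineage, 6 myeloid, 5 erythroid and 4 fibroblast markers had one. None of these markers lay among the narrow promoters. The longer lists used below did hold genes of other cell types with a region over the start site. They were 2 of 10 B-lineage, 1 of 11 myeloid, 3 of 9 erythroid and megakaryocyte and 5 of 13 fibroblast and epithelial genes. Natural killer and innate lymphoid genes had one at 6 of 9, and neuronal genes at 4 of 12.

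Promoter sequences, 250 bases before to 50 after the start in RefSeq (GRCm38.p6), were available for 4066 narrow promoters (81.9%) by gene symbol, with the first listed start used where a gene had several. They were rich in CpG: the median GC content was 60.3% and the median ratio of observed to expected CpG 0.79, against 52.7% and 0.39 over the 27025 promoters of all genes in the table of sequences. A ratio under 0.4 was found in 9.49% of narrow promoters, 18.4% of broad ones and 51.0% of all. The following 6 belong to promoters that lead the changes described below, and show the range from CpG-dense to CpG-poor. Capitals mark matches to the 10 motifs searched, on either strand. The sequences are Rnf166, chr8:122476025-122476324 (minus strand), Gimap4, chr6:48684328-48684627 (plus strand), Ubxn2a, chr12:4907504-4907803 (minus strand), 2610528J11Rik, chr4:118527025-118527324 (plus strand), Cpa3, chr3:20242132-20242431 (minus strand), and Cd96, chr16:46120199-46120498 (minus strand).
Rnf166: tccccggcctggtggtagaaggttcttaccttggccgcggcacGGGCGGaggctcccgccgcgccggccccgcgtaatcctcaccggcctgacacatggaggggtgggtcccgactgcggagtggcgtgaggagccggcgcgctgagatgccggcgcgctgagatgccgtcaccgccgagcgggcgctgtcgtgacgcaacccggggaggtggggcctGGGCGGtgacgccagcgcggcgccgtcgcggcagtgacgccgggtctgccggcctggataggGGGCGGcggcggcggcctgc
Gimap4: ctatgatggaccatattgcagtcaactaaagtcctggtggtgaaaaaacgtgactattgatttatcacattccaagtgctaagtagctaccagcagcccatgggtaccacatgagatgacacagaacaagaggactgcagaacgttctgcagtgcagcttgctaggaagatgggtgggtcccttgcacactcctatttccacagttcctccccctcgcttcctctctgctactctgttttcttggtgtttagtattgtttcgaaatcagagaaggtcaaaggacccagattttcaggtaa
Ubxn2a: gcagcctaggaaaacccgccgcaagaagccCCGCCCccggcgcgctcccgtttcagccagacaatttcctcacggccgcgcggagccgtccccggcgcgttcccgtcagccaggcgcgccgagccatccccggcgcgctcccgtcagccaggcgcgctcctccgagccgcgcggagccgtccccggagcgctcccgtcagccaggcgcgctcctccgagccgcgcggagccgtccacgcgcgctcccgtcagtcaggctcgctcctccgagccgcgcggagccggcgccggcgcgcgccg
2610528J11Rik: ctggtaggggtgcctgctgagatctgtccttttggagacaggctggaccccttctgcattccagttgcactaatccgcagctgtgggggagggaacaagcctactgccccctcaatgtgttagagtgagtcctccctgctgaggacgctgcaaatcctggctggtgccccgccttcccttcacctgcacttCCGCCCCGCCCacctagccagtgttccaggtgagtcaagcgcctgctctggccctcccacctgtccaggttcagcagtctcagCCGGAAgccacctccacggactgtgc
Cpa3: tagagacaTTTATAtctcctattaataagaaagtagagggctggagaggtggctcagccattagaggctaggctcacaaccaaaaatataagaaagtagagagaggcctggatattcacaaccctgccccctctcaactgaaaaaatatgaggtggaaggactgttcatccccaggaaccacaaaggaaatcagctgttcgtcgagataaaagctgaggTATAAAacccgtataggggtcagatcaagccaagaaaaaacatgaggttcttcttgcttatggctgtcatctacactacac
Cd96: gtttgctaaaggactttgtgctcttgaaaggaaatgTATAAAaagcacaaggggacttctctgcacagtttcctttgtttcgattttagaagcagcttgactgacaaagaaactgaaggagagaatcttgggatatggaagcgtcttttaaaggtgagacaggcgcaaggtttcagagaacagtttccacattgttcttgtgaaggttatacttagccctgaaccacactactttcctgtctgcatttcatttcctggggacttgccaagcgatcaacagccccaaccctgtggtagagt

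Among these, Rnf166 and Ubxn2a had 44 and 56 CpG dinucleotides in 300 bases and matches only to the GC box, whereas Gimap4, Cpa3 and Cd96 had 4, 3 and 4. Cpa3 and Cd96 matched the TATA box letters, and Gimap4 matched no motif. The region coordinates of the authors' table are on mm9 and were not converted, so whether a printed start lies under its region was not checked by position.

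The response of these promoters to deacetylase inhibition was addressed by apicidin against DMSO. H3K27ac fell at far more narrow promoters than it rose: 1968 of 4965 were lower (39.6%) and 203 higher (4.09%) by the adjusted p under 0.05 that the authors' deposited table gives. Over all 56342 regions, 14.1% were lower and 9.69% higher. Over the 7889 regions that covered a TSS, narrow promoters included, 39.4% were lower and 8.01% higher, so the lower share was much the same. The median log2 fold change of narrow promoters was -0.28 (quartiles -0.52 and -0.03), with 77.6% below 0, and that of all regions was 0.0040. Changes were mostly modest, since the called promoters had medians of -0.58 when lower and 0.59 when higher, and 147 lower and 27 higher ones reached 1 on the log2 scale. With the trend of fold change over base mean in all regions subtracted, 1325 were lower and 346 higher, and the higher share of calls moved from 9.35% to 20.7%.

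How the authors scaled the libraries to each other is unknown, and all fold changes are relative to that scaling. A change in total acetylation therefore cannot be read from the fold changes. The apicidin median over all 56342 regions, of which 48453 lay off a TSS, was 0.0040. A negative apicidin value is thus low relative to the middle of all regions. Fewer cells carrying the mark and less mark per cell cannot be told apart in these bulk libraries.

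With GSI the class median lay near 0. Of the 4724 narrow promoters with an adjusted p for GSI, 127 were higher (2.69%) and 128 lower (2.71%) in the authors' deposited table, against 6.62% and 7.17% of all 25756 regions tested. The remaining 241, all of low base mean, had no adjusted p and were left untested. The median log2 fold change was -0.0023, and 5 higher and 4 lower promoters reached 1 on the log2 scale. The DMSO libraries serve both comparisons, so the values of 1 promoter in the 2 comparisons are not independent.

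**Figure D1:**
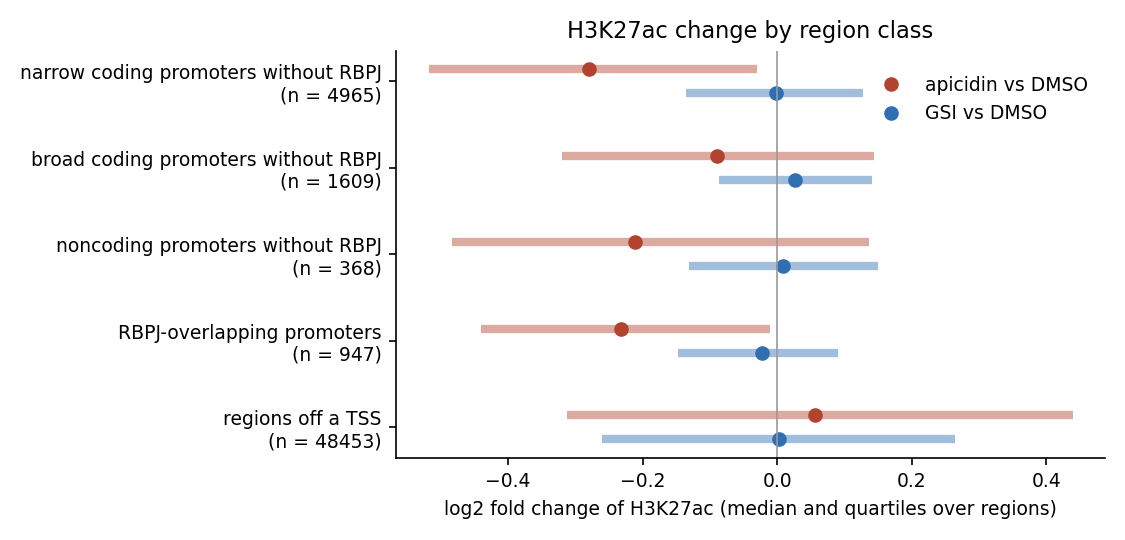
Median (points) and quartiles (bars) of the authors' log2 fold change of H3K27ac over regions, for apicidin and GSI against DMSO, in 5 classes of regions. Narrow coding promoters have the lowest apicidin median of the 5, -0.28, and a GSI median of -0.0023.

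Taken directly against each other, apicidin gave less H3K27ac than GSI at 1021 narrow promoters (20.6%) and more at 48 (0.967%), from the difference of both deposited fold changes at an adjusted p under 0.05. Over all regions these shares were 5.6% and 3.01%. Of the 1609 broad coding promoters, apicidin was called below GSI at 390 and above it at 186.

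At broad coding promoters losses came with a larger share of gains. With apicidin 589 of 1609 were lower (36.6%) and 311 higher (19.3%) in the authors' deposited table, and the median was -0.09. With GSI 131 were lower (8.14%) and 195 higher (12.1%). The 368 noncoding promoters without RBPJ had 146 lower (39.7%) and 48 higher (13.0%) for apicidin and a median of -0.21. The 947 RBPJ-overlapping promoters had 402 lower (42.4%), 70 higher (7.39%) and a median of -0.23. These are counts side by side, and the difference between classes was not tested. The limit of 3000 bp did not mark a step: the 98 promoters within 100 bp below it had a median of -0.13 (41 lower, 8 higher), and the 87 within 100 bp above it one of -0.24 (41 lower, 5 higher).

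The apicidin value of a narrow promoter went with how dense its acetylation was. In the 137 promoters with a base mean of at most 100 per kb the median log2 fold change was 0.25, with 23 higher and 9 lower in the authors' deposited table. At 200 to 250 per kb it was -0.24 (1122 promoters, 27 higher, 370 lower), and above 400 per kb it was -0.60 (330 promoters, 1 higher, 290 lower). Across the 4965 promoters Spearman's rho between signal per kb and the apicidin fold change was -0.40 (Pearson's r -0.38), and between signal per kb and the GSI fold change it was 0.035 (r 0.039). These points share libraries, and the base mean contains the treated libraries too, so the rho is a description only.

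At like density, narrow promoters lay below broad ones. In each of the 7 density bins that held at least 20 of both classes the narrow median was lower, by 0.18 to 0.52 on the log2 scale. For 200 to 250 per kb the medians were -0.24 and 0.02, and above 400 per kb -0.60 and -0.40. Subtracting the base mean trend left the densest narrow promoters at -0.44 and the sparsest at 0.23.

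**Figure D2:**
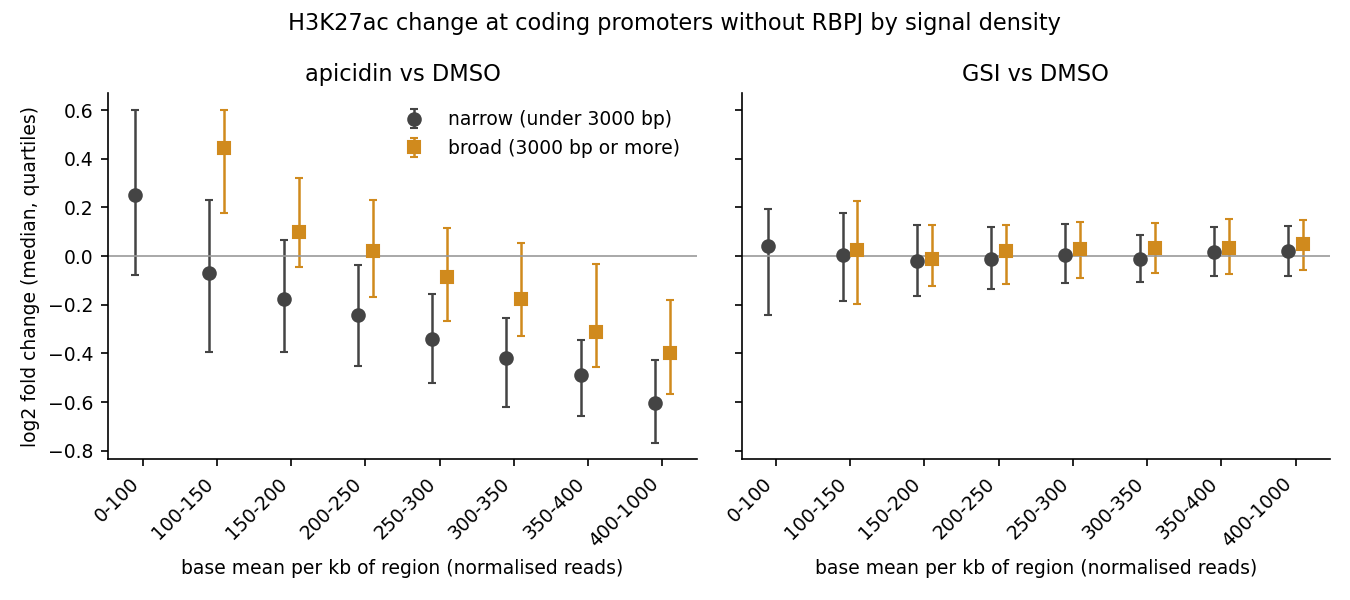
Median and quartiles (error bars) of the authors' log2 fold change against signal density (base mean per kb, unequal bins), for narrow and broad coding promoters without RBPJ, bins with at least 20 regions. With apicidin both classes go down from left to right and narrow promoters lie under broad ones at each shared density, and with GSI both stay near 0.

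Apicidin values varied only weakly with width over the class (Spearman's rho 0.066, Pearson's r 0.067), and more among sparsely acetylated promoters. The apicidin median was -0.31 for the 193 promoters of up to 500 bp and -0.30 in each bin of 500 bp from there to 2000 bp. It was -0.27 for the 879 of 2000 to 2500 bp and -0.19 for the 560 of 2500 to 3000 bp. Among promoters of at most 150 per kb, those of up to 1000 bp had a median of -0.14 (64 lower, 19 higher), and those of 2000 to 3000 bp 0.24 (10 lower, 35 higher). Above 350 per kb the same width classes had -0.66 and -0.50. The 203 narrow promoters called higher had a median width of 1912 bp at 158 per kb, against 1660 bp at 283 per kb for the 1968 called lower.

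The distance to the next H3K27ac region also went with the apicidin value. Of all narrow promoters 2144 (43.2%) had another H3K27ac region within 500 bp, and 506 had none within 50000 bp. Of the isolated 506, 276 were lower and 5 higher with apicidin in the authors' deposited table, and their median was -0.46. Of the 2144, 741 were lower and 123 higher, with a median of -0.21. The order held within density classes: at 200 to 250 per kb promoters with a region within 500 bp had -0.16 and those with none within 10000 bp -0.37, and above 300 per kb the values were -0.44 and -0.62.

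Regions just beside narrow promoters had higher apicidin values than the promoters, above all on the downstream side. The difference between the sides was not tested. Neighbours were the next region on each side by the gene's strand, if off a TSS and within 500 bp of the promoter region. Whether downstream neighbours lay inside the gene was not checked. Downstream neighbours had a median apicidin log2 fold change of 0.36 over 983 promoters. Of these neighbours 96 were higher (9.77%) and 18 lower (1.83%) in the authors' deposited table. Upstream the median was 0.05 over 957 promoters, with 67 higher and 93 lower. The promoters themselves had medians of -0.22 and -0.20, and the neighbour lay above its promoter in 84.8% of downstream and 66.7% of upstream pairs. Flanking regions were weak, with median base means of 32.8 downstream and 67.7 upstream, and weak regions had higher apicidin fold changes in the whole table. After subtraction of that trend the medians were 0.25 and 0.04, and at a neighbour base mean of 100 to 400 they were 0.19 downstream and -0.05 upstream. For the strongest neighbours, with a base mean above 400, they were -0.04 over 31 downstream and -0.18 over 70 upstream. At 2000 to 5000 bp both sides were near 0, with 0.03 and 0.04. For GSI the medians within 500 bp were 0.03 downstream and 0.04 upstream.

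**Figure D3:**
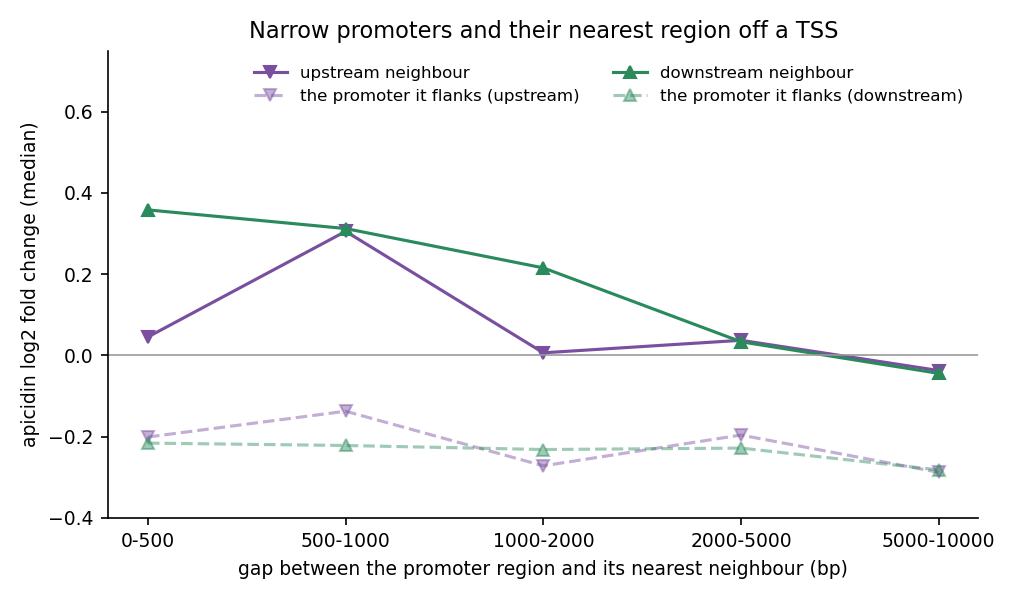
Median apicidin log2 fold change of the nearest region off a TSS on either side of a narrow promoter (solid lines) and of the promoters flanked (dashed lines), by the gap between them in bp. Within 500 bp the downstream neighbours sit at 0.36 and the upstream ones at 0.05, while the promoters lie between -0.29 and -0.14; the upstream bin of 500 to 1000 bp holds 73 pairs.

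Loss at the promoter beside a called gain in the neighbour was seen at 15 of 364 lower promoters with a downstream neighbour and 12 of 303 with an upstream one, no larger a share than the 96 of 983 and 67 of 957 called higher among all such neighbours. The neighbour was called lower together with the promoter at 9 of the 364 and 52 of the 303. Among all such neighbours 18 of 983 (1.83%) and 93 of 957 (9.72%) were called lower. At Acot7, an acyl-CoA thioesterase gene, the promoter (mm9, chromosome 4, 151550097 to 151552231) fell by 0.60 ± 0.10 (SE, adjusted p = 6.45e-09) in the authors' deposited table. The region that starts 104 bp downstream of it (151552336 to 151554804) rose by 1.01 ± 0.12 (adjusted p = 7.00e-15) there. Hmgn2, a nucleosome-binding protein gene, fell by 0.80 ± 0.09 at its promoter and rose by 0.81 ± 0.24 (adjusted p = 0.00539) 80 bp downstream, again in the authors' deposited table. The same pairing was called at Eif4a3, a helicase of the exon junction complex, with -0.47 ± 0.10 and 0.62 ± 0.16 in the authors' deposited table. These 3 were chosen after their values were seen, and not strictly by coverage. Of the 15 downstream neighbours, those of highest base mean, at Gramd4 (908) and Abhd16a (506), rose less. Their values were 0.23 ± 0.09 and 0.30 ± 0.11 in the authors' deposited table.

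Promoters were also compared with the other regions the authors assigned to the same gene. The 3325 narrow promoters with at least 1 region off the TSS had an apicidin median of -0.26, the median over their genes' other regions was 0.09, and the promoter lay below in 72.8%. Regions off a TSS were weaker over the whole table, with a median base mean of 48.4 against 340 for narrow promoters. Their apicidin median there was 0.06, so the contrast within genes lay close to that between the 2 classes. For the 1640 promoters with no other region off the TSS the median was -0.33. Across the 3325 promoters, of 3288 gene symbols, Spearman's rho between promoter and other regions was 0.21 (Pearson's r 0.27), a description over promoters that share the libraries.

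The 10 largest gains with apicidin were taken among promoters of at least the median base mean of the class. Rnf166, an E3 ubiquitin ligase gene (mm9, chromosome 8, 124997061 to 125000008, over the start of its coding transcript), rose by 1.94 ± 0.13 (3.82-fold, adjusted p = 3.53e-47) in the authors' deposited table, from a base mean of 513. Gimap4, a GTPase of lymphocytes (chromosome 6, 48634371 to 48637298), rose by 1.63 ± 0.14 (adjusted p = 4.83e-28), and Rara, the retinoic acid receptor alpha, by 1.30 ± 0.14 in the authors' deposited table. Id3, an inhibitor of E proteins, and Cd69, an early activation antigen, followed with 1.11 ± 0.15 and 0.99 ± 0.13 in the authors' deposited table. Rasa3, which switches Ras off, had 0.86 ± 0.13, and the exchange factors Rasgrp4 and Rasgrp1 had 0.83 ± 0.14 and 0.76 ± 0.15, all 3 called higher in the authors' deposited table. Cpa3, a carboxypeptidase of mast cells, and the metalloprotease Adamts10 completed the 10 with 0.96 ± 0.15 and 0.85 ± 0.14 in the authors' deposited table. All 10 were wider than the median narrow promoter, between 1983 and 2948 bp. Width rose with base mean across the class (Spearman's rho 0.86, Pearson's r 0.79), so the filter on base mean itself favoured wide promoters.

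The 10 deepest losses were taken among promoters of the same strength. Kdelc2, an endoplasmic reticulum glycosyltransferase gene (chromosome 9, 53191845 to 53192929), fell by 1.43 ± 0.16 (adjusted p = 4.41e-17) in the authors' deposited table. 2610528J11Rik and Ubxn2a, the latter an adaptor with a UBX domain, fell by 1.32 ± 0.14 each, and Sulf2, an extracellular heparan sulfatase, by 1.31 ± 0.12 in the authors' deposited table. The prefoldin subunit gene Pfdn4, the mitochondrial kinase gene Pink1, Ermp1, Mblac1, the mitotic cyclin gene Ccnb2 and the ubiquitin-conjugating enzyme gene Ube2e3 had values from -1.23 to -1.18, each with an SE of 0.11 to 0.15, and all were called lower in the authors' deposited table. Pfdn4, Pink1, Ermp1 and Ccnb2 had no other region within 10000 bp. The regions of Pink1 (642 bp) and Pfdn4 (806 bp) were under the lower quartile of width.

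The strongest narrow promoters fell with apicidin without exception among the 10 of highest base mean. Ep300, which encodes the acetyltransferase p300, had the highest base mean, 2475, and fell by 0.76 ± 0.07 (adjusted p = 3.20e-22) in the authors' deposited table, with -0.0056 ± 0.07 for GSI. Hmgb2, a chromatin protein of dividing cells, and Efcab2 fell by 1.07 ± 0.09 and 1.03 ± 0.09 in the authors' deposited table. Pnrc1, a nuclear receptor coregulator with a base mean of 2083, fell by 0.84 ± 0.08 with apicidin and with GSI had 0.22 ± 0.08 (adjusted p = 0.0488) in the authors' deposited table; that GSI call was lost under adjustment over all regions and under subtraction of the base mean trend. The other 6, Zfr, Actg1, Cdk17, Setd1a, Ncoa2 and Suv420h1, had base means from 1734 to 1898 and were all called lower.

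With GSI the largest gain among promoters of at least median base mean was at Cpa3, which rose by 1.21 ± 0.15 (adjusted p = 4.06e-14) in the authors' deposited table. Cd96, a receptor of T and natural killer cells, rose by 0.83 ± 0.14 (adjusted p = 1.97e-07) and had 0.18 ± 0.14 with apicidin (adjusted p = 0.390) in the authors' deposited table. The difference of its 2 fold changes was -0.64 (adjusted p = 0.0179). Aes, a corepressor of the Groucho family, Rnf166, Trp53inp2, a factor of autophagy, and the proton pump subunit gene Atp6v0d1 rose by 0.75, 0.74, 0.71 and 0.66 (SE 0.09 to 0.15) in the authors' deposited table. 3110001D03Rik, Dusp5, a phosphatase that acts on ERK, Cd69 and Cpeb2 closed the 10 with 0.60 to 0.69 in the authors' deposited table. Trp53inp2 and Cpeb2 had apicidin values of -0.24 ± 0.13 (not called) and -0.42 ± 0.12 (lower, but not with the base mean trend subtracted) in the authors' deposited table, and the difference between treatments was called at both (-0.95 and -1.02).

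Among promoters of at least median base mean, the 10 largest losses with GSI reached less far than the 10 largest gains. 2610528J11Rik fell by 0.65 ± 0.14 (adjusted p = 9.01e-05), and the other 9, among them the guidance ligand gene Slit3, the kinase gene Hunk, the plakin gene Evpl, the lipid-anchored protein gene Palm and Unc93b1, a chaperone of nucleic acid sensing receptors, fell by 0.53 to 0.57 in the authors' deposited table. Rab20, a small GTPase of vesicle traffic (chromosome 8, 11475881 to 11478576), fell by 0.57 ± 0.15 with GSI (adjusted p = 0.00177) and rose by 0.50 ± 0.13 with apicidin (adjusted p = 0.00140) in the authors' deposited table. Its difference between treatments was 1.07 (adjusted p = 5.34e-06). Hunk was called lower with GSI and had -0.10 ± 0.11 with apicidin in the authors' deposited table, with a called difference of 0.46. Slit3 and Palm had -0.20 and -0.21 with apicidin in the authors' deposited table, and their differences of 0.37 and 0.32 did not pass (adjusted p = 0.269 and 0.291).

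**Figure D4:**
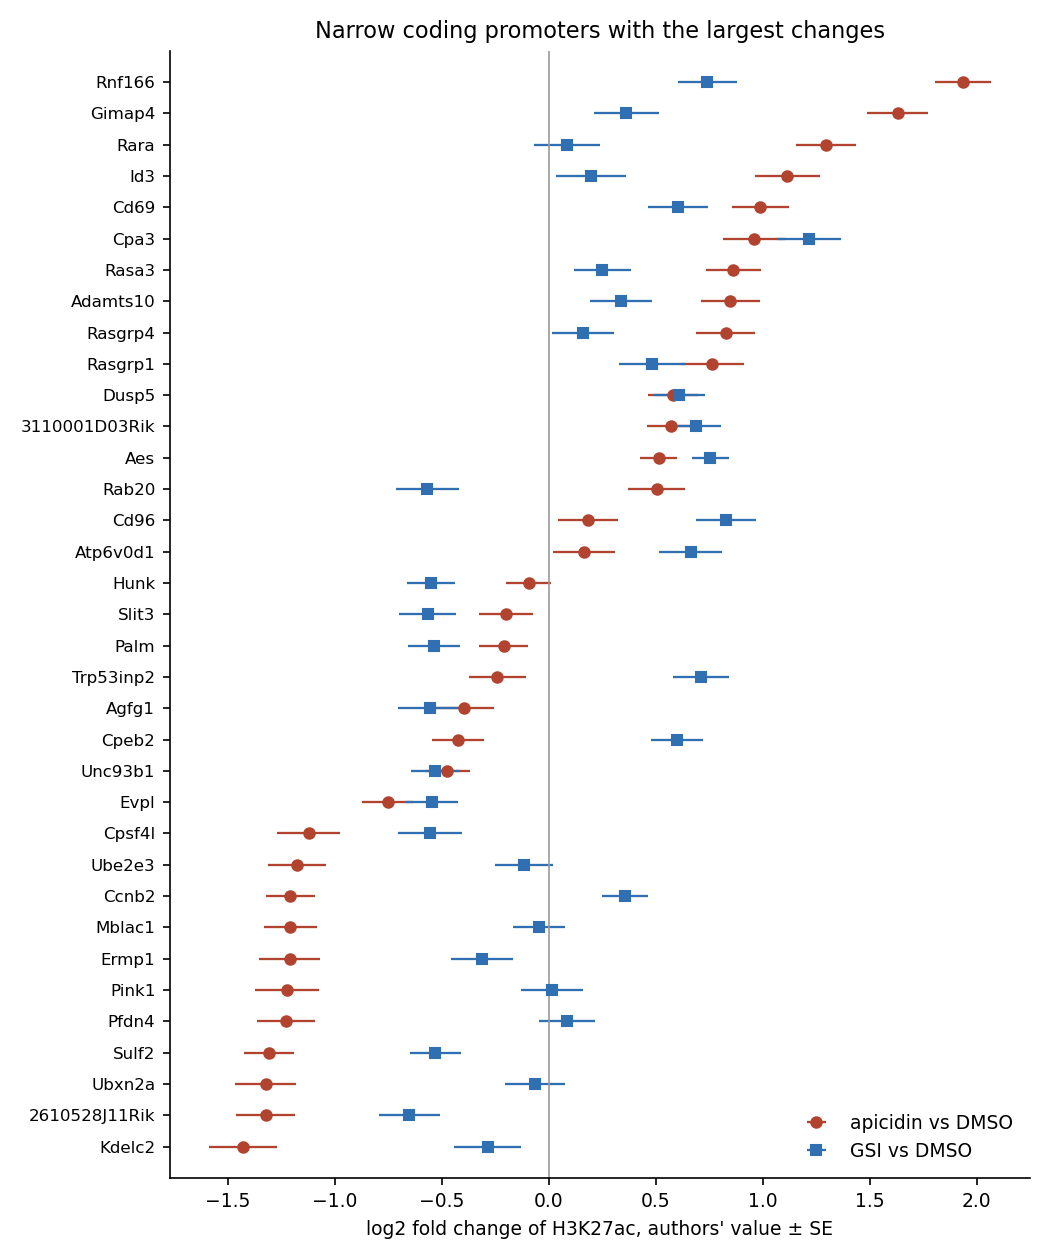
Authors' log2 fold change with its SE (error bars) at the narrow promoters of at least median base mean with the largest called changes in either treatment, sorted by the apicidin value. Rnf166 stands at the top with 1.94, Kdelc2 at the bottom with -1.43, and Rab20 is on opposite sides of 0 in the 2 treatments.

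Gene lists were read as counts of their narrow promoters called, beside 4.09% higher and 39.6% lower among all narrow promoters for apicidin. For GSI the shares among narrow promoters tested were 2.69% higher and 2.71% lower, and among all regions tested 6.62% and 7.17%. Of 1333 listed genes in the table, 629 had a narrow promoter. Genes of mitosis and cytokinesis had the largest lower share of the lists with at least 10 promoters, 19 of 24 with none higher and a median of -0.62. Cdk1, the mitotic kinase, fell by 0.78 ± 0.09, Ndc80, of the outer kinetochore, by 0.84 ± 0.09, and Cenpa, the centromeric histone, by 0.89 ± 0.11 in the authors' deposited table. The list's promoters had a median of 272 per kb, and among all narrow promoters of 250 to 300 per kb 52.2% were lower. Proteasome and cytosolic ribosomal promoters, with list medians of 265 and 263 per kb, had 21.7% and 15.4% lower. With GSI 1 of the 24 was called, Ccnb2, which rose by 0.36 ± 0.11 (adjusted p = 0.0124) in the authors' deposited table.

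Acetyltransferases and bromodomain proteins had 7 of 10 lower and none higher (median -0.53, 371 per kb). Among all narrow promoters of 350 to 400 per kb, 221 of 268 were lower (82.5%, median -0.49), so the list did not stand out at its density. Besides Ep300, Crebbp, which encodes CBP, fell by 0.85 ± 0.12 (adjusted p = 1.17e-10) in the authors' deposited table. HDAC and NCoR complex genes had 4 of 12 lower (median -0.21). The Notch pathway list, whose RBPJ-overlapping genes lie outside this class, had 5 of 11 lower with apicidin (median -0.31) and none of 10 tested called with GSI.

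DNA repair genes were lower at 17 of 35 and higher at 1 (median -0.37), and DNA replication genes at 9 of 27 with none higher (median -0.16). In the Fanconi anaemia pathway Fancl fell by 0.89 ± 0.13 and Fancf by 1.02 ± 0.13 in the authors' deposited table. The replication-dependent histones had only 6 narrow promoters, with 3 lower for apicidin (median -0.34) and 3 of 6 higher for GSI (median 0.32). Hist1h2ag, a gene for histone H2A, fell by 0.52 ± 0.10 with apicidin and rose by 0.40 ± 0.10 with GSI (adjusted p = 6.67e-04) in the authors' deposited table, a called difference of -0.91. These genes are near-identical copies in clusters, so their values are uncertain where reads could be placed at more than 1 copy.

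Genes of translation, energy supply and protein turnover followed. Of 26 cytosolic ribosomal protein promoters 4 were lower and 1 higher, with a median of -0.03 that turned to 0.07 under centring on stronger regions (2 lower, 3 higher) and 0.12 with the base mean trend subtracted (1 lower, 5 higher). Rplp1, a stalk protein gene, rose by 0.46 ± 0.11 (adjusted p = 3.23e-04) and Rps27l fell by 0.58 ± 0.11 in the authors' deposited table. Mitochondrial ribosomal protein genes were lower at 9 of 43 and higher at 3 (median -0.14), a balance that turned to 6 lower and 8 higher under centring and 7 lower and 10 higher with the trend subtracted. Among them Mrpl48 had -1.25 ± 0.17 (adjusted p = 1.88e-12), the deepest named, per the authors' deposited table. Complex I genes were lower at 10 of 26 and higher at 1 (median -0.25), and aminoacyl tRNA synthetases lower at 7 of 23 (median -0.21). Proteasome subunits were lower at 5 of 23 (median -0.17), and with GSI none of the 22 proteasome and 26 cytosolic ribosomal promoters tested was called.

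Genes of RNA production lay near the class average. Spliceosome genes were lower at 11 of 28 and higher at 1 (median -0.26), and the 1 higher was Lsm7, an Sm-like protein gene, with 1.07 ± 0.15 (adjusted p = 9.52e-12) in the authors' deposited table. Mediator and TFIID genes were lower at 10 of 27 (median -0.25), and Med7, a Mediator subunit gene, fell by 0.55 ± 0.09 with apicidin and rose by 0.29 ± 0.09 with GSI in the authors' deposited table. Zfp zinc finger genes were the largest list, with 54 of 147 lower, 4 higher and a median of -0.26, and 2 higher and 2 lower of 141 tested with GSI. Zfp644 fell by 0.81 ± 0.08 (adjusted p = 3.94e-23) in the authors' deposited table. Solute carriers had 30 of 80 lower and 4 higher (median -0.27), where Slc37a3, a sugar phosphate carrier gene, rose by 0.84 ± 0.21 in the authors' deposited table.

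Among organelle and stress genes, autophagy and lysosome genes had 6 of 29 lower and 2 higher with apicidin (median -0.19) and 4 of 28 higher with none lower with GSI (median 0.14). The 4 were Atp6v0d1, Gabarap, Gabarapl2 and Atg13, with 0.66, 0.40, 0.58 and 0.26 in the authors' deposited table, and the last 2 were lost under adjustment over all regions. Tfeb, a transcription factor of lysosomal genes, rose by 0.94 ± 0.17 with apicidin (adjusted p = 3.91e-07) in the authors' deposited table. Peroxisome genes had 4 of 9 lower and 1 higher (median -0.32), and ciliary transport genes 2 of 7 each way (median -0.37). The integrated stress response had 4 of 6 lower (median -0.50), led by Chac1, a glutathione-degrading enzyme gene, with -1.50 ± 0.16 (adjusted p = 3.17e-19) in the authors' deposited table. Cholesterol and lipid genes had 1 of 6 each way (median 0.17), and 3 higher with none lower both under centring and with the trend subtracted.

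Cell-cycle inhibitors and p53 targets had 3 of 5 lower and 1 higher with apicidin. The 1 was Gadd45g, a growth arrest gene (chromosome 13, 51942017 to 51944746), which in the authors' deposited table rose with apicidin by 2.36 ± 0.17 (5.13-fold, adjusted p = 3.19e-41), the largest rise of all narrow promoters, and with GSI by 1.46 ± 0.18 (adjusted p = 2.50e-14). Its base mean of 306 lay just below the median of the class. T-lineage genes, of which 5 of 43 with a region over the start were narrow and free of RBPJ, had 1 higher and 1 lower with apicidin (median 0.16; 3 higher and 1 lower under centring) and 2 of 5 higher with GSI. Rasgrp1, a T cell receptor signalling gene, rose by 0.48 ± 0.15 (adjusted p = 0.0182) and Runx3, a factor of the CD8 and killer lineages, by 0.77 ± 0.20 (adjusted p = 0.00211), both for GSI as the authors' deposited table gives them. Cd5, a brake on T cell receptor signalling, fell by 0.41 ± 0.12 with apicidin in the authors' deposited table, a call lost with the base mean trend subtracted.

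Genes of other cell types were few among narrow promoters. Natural killer and innate lymphoid markers (Prf1, Tbx21, Nfil3, Il2rb) had none of 4 called with apicidin and a median of 0.42, but 3 of 4 were called higher under centring and 2 of 4 with the trend subtracted. B-lineage (2 promoters) and erythroid (2) markers had none called, with medians of -0.27 and -0.02, the erythroid one turning to 0.08 under centring with 1 called higher. The 1 myeloid marker, Tyrobp, fell by 0.57 ± 0.13 in the authors' deposited table, 2 of 3 neuronal promoters were lower (median -0.95), and 1 of 2 fibroblast and epithelial ones (Cldn4) was lower (median -0.69). Interferon genes had 1 of 6 each way, with a median of -0.0044 that turned to 0.09 under centring. None of the promoters of these 7 lists that were tested for GSI was called.

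**Figure D5:**
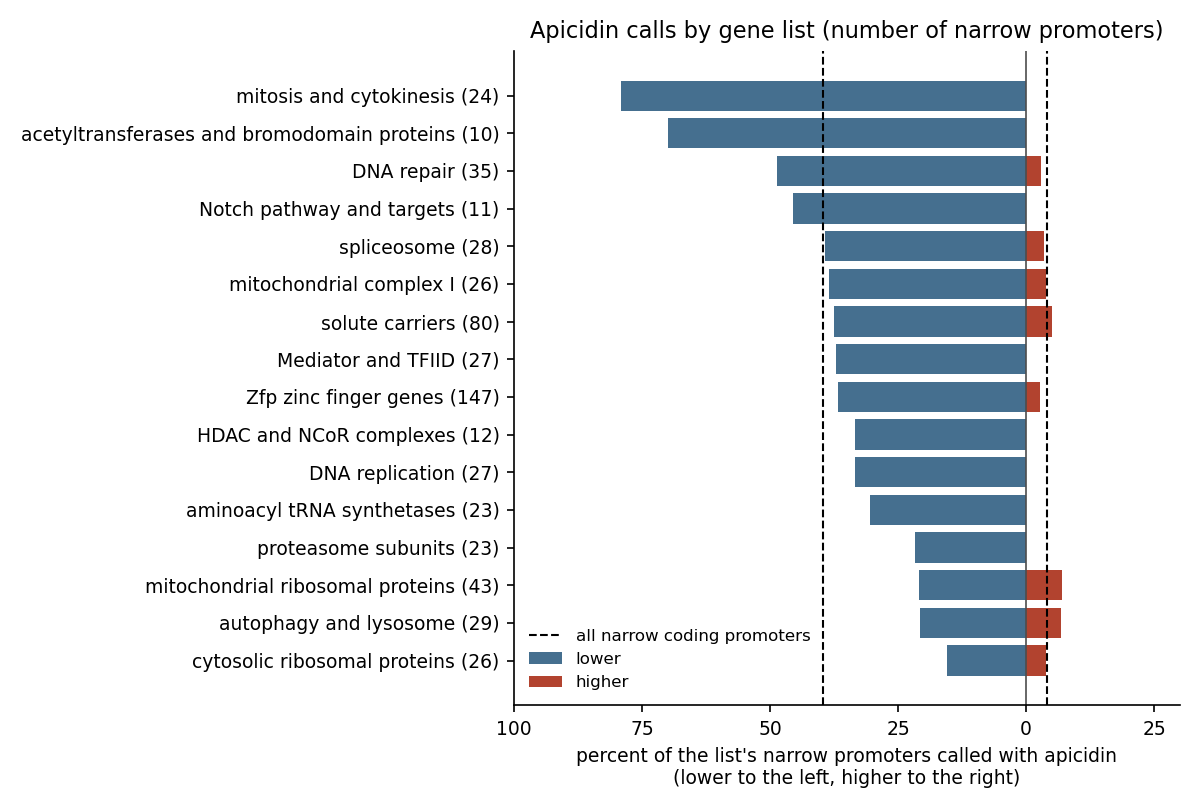
Percent of each list's narrow promoters called lower (bars to the left) or higher (bars to the right) with apicidin, for the lists with at least 10 such promoters, numbers in brackets. The dashed lines give all narrow coding promoters, 39.6% lower and 4.09% higher, and mitosis and cytokinesis extends furthest to the left with 19 of 24.

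For 45 gene symbols 2 narrow promoters lay on the same assembled chromosome; near-identical gene copies under 1 symbol may be among them. Both were lower with apicidin for 8 symbols and both higher for 1, 14 had 1 called, 20 none, and 2 had calls in opposite directions. Aldoa, a glycolytic enzyme gene with promoters of base mean 806 and 816, had 0.28 ± 0.10 (adjusted p = 0.0296) at the first and -0.33 ± 0.10 (adjusted p = 0.00587) at the second in the authors' deposited table. Evl, a regulator of actin, had -1.08 ± 0.23 and 0.35 ± 0.13 in the authors' deposited table, the loss at the weaker promoter (base mean 133 against 372). Both promoters fell at Dnmt3a, a DNA methyltransferase gene (-0.73 ± 0.11 and -0.31 ± 0.08), and at the transcription factor gene Nfix (-0.75 ± 0.12 and -1.07 ± 0.17) in the authors' deposited table.

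The sequence of the promoter went with the responses only weakly. Narrow promoters with an observed to expected CpG ratio of at most 0.4 were lower with apicidin at 117 of 388 (30.2%) and higher at 31 (7.99%), and those above 1 at 268 of 559 (47.9%) and 12 (2.15%), with medians of -0.21 and -0.31. Signal density ran the same way, at 167 and 250 per kb. Motifs were searched as exact letters on both strands in the 300 bases. The GC box GGGCGG was in 65.3% of narrow promoters, 64.7% of broad and 35.9% of all promoters, and the ETS core CCGGAA in 34.1%, 27.2% and 15.2%. The TATA box TATAAA was in 5.88%, 7.22% and 14.2%, CCAAT in 40.0%, 35.9% and 37.9%, and the E-box CACGTG in 9.91%, 10.6% and 7.24%. The NRF1 core GCGCATGC was in 6.59%, 4.15% and 2.80%, the YY1 letters AAGATGGC in 5.80%, 4.30% and 2.88%, and the ZNF143 letters CTACAATTC in 0.885%, 0.614% and 0.381%. The RBPJ letters GTGGGAA were in 5.26% of narrow promoters, 3.84% of broad and 6.39% of all. For apicidin the medians with and without a motif lay closest to each other for ZNF143 and furthest apart for the E-box (-0.23 with it and -0.29 without).

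The cyclic AMP response element TGACGTCA was in 4.08% of narrow, 2.15% of broad and 1.88% of all promoters. Of the 162 narrow promoters with it that were tested for GSI, 10 were higher (6.17%) and 1 lower (0.617%) in the authors' deposited table. The class had 2.69% higher and 2.71% lower, and all regions tested had 6.62% and 7.17%. The higher share thus lay near that of all regions. With the TATA box 4.46% were higher and 3.57% lower, and with the E-box 4.44% and 1.83%. The GSI median was 0.07 with the TGACGTCA letters and -0.0060 without. The 10 were Trp53inp2 (0.71 ± 0.13), Ranbp6, Ddx19a, Hist1h2ag, Orc5, of the origin recognition complex, Aptx, Ppp1r15a, a phosphatase subunit of the stress response, Ndufb2, Tdg and Ube2b, and the lower one was Lmcd1 (-0.45 ± 0.13), values from the authors' deposited table. This motif was singled out after the values were seen, and a match describes letters, not binding.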

How the data were processed

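H3K27ac was measured by chromatin immunoprecipitation and sequencing in Beko cells, 2 libraries per treatment. Per the submitters' processing notes, FastQC, Bowtie2, SAMtools and deepTools were used with the mouse build mm9. Not given in the sources used here were the region caller, the counter and every version. The deposited table holds DESeq2 output for apicidin and for GSI, per the file headers. Its base mean is a signal the authors averaged over libraries from normalised reads. The log2 fold changes with standard errors (SE) were fitted by the authors, as deposited. The Wald scores are the authors' too, per the file headers. The p-values and adjusted p-values were deposited by the authors. DMSO, which alone serves as control in the labels, was taken as the reference. Depth per library is unknown, and the SE carries the precision that depth gave.

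Adjusted p-values exist for all 56342 regions with apicidin and for 25756 with GSI, at base means of 72.1 and more. A region was called higher or lower at the authors' adjusted p under 0.05. Both treatments were compared by the difference of their fold changes over the root of the summed squared SEs, a two-sided normal p with Benjamini-Hochberg adjustment over all regions; because DMSO is shared, that SE is an upper bound where the shared part is positive. Gene lists (30), classes and bins were described by counts and medians, with no test of their own. The lists cover zinc finger, ribosomal, complex I, proteasome, solute carrier, tRNA synthetase, DNA repair, mitosis, DNA replication, histone, spliceosome, Mediator and TFIID, peroxisome, ciliary, HDAC and NCoR, acetyltransferase, Notch, T-lineage, other cell type, p53, stress, cholesterol, interferon and autophagy genes. Members and lists were chosen with earlier results of these data known. The analyses of neighbouring regions, isolation and signal density were added after the values were seen. Named genes are the 10 largest called changes per direction and treatment with a base mean not under the class median, the 10 of highest base mean, and up to 4 of each list per treatment with the smallest adjusted p; the exceptions are said in the text. Strands and promoter sequences came from RefSeq (GRCm38.p6) by symbol. The steps were tested on simulated data (Python 3.11.15, pandas 2.3.3, NumPy 2.4.6). Alternatives changed the threshold, the zero of the fold change, the base mean trend (running median of 1001 regions), the filter, the width limit, the regions per gene and the adjustment.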

Additional observations from a re-analysis of the deposited data

How the results depend on the processing

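No paired analysis was possible because the table holds no values per library; for the same reason the planned fits with a replicate block and without each replicate were not run. The median apicidin log2 fold change of narrow coding promoters stayed below 0 under every alternative run, at -0.18 with centring on stronger regions and -0.16 with the base mean trend subtracted, and no called promoter reversed. The median of the stronger regions was -0.0991, and centring on it kept 1462 of 1968 lower and 203 of 203 higher calls; the trend kept 1325 and 202. Higher calls with apicidin numbered 319 under centring and 346 with the trend subtracted. A change of at least 0.5 on the log2 scale left 133 higher and 1239 lower with apicidin and 57 higher and 54 lower with GSI. With GSI an adjusted p under 0.01 left 65 higher and 51 lower, and adjustment over all regions left 84 lower and 95 higher. Fewer regions enter under a stricter width: under 2000 bp 111 were higher with apicidin and 75 higher and 76 lower with GSI, and under 1500 bp 68 higher and 804 lower with apicidin and 44 higher and 46 lower with GSI. The difference between treatments at an adjusted p under 0.01, an alternative chosen after seeing the data, left 18 promoters above and 693 below. Width, overlap with RBPJ and the region bounds were the authors', and other region calls could change who belongs to the class.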
